A study of Homo sapiens with 66 samples.

Results

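The genes described here are 9 that handle lipid droplets, lipid uptake and lipid flux in the cell: PLIN2, HILPDA, PNPLA2, LPIN1, VLDLR, LRP1, FABP3, CPT1A and INSIG2. They were followed through 50 lists of chromatin binding sites of the hypoxia-inducible factor (HIF). A peak was given to a gene when its centre lay in the gene body or within 50 kb of a transcription start site (TSS) and was nearer to that gene than to any other of the 19821 protein-coding genes annotated. By this rule 207 of 131131 peaks on the main chromosomes belonged to the 9 genes, and they merged into 20 sites out of 50169. Peaks were found at 8 of the 9 genes, against 60.5% of all protein-coding genes.

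HIF is a dimer of an oxygen-regulated α-subunit, HIF-1α or HIF-2α, and the constitutive HIF-1β. It binds the hypoxia response element (HRE), whose core is ACGTG or GCGTG. Cells short of oxygen burn less fatty acid and store more of it as triglyceride, in droplets whose coat and turnover are set by several of the proteins encoded here. PLIN2 coats the droplet, HILPDA inhibits the lipase that PNPLA2 encodes, and LPIN1 makes the diacylglycerol from which triglyceride is built. VLDLR and LRP1 are receptors that take up lipoproteins, and FABP3 carries fatty acids in the cytosol. CPT1A brings fatty acids to the mitochondrion for oxidation, and INSIG2 holds the sterol sensor complex in the endoplasmic reticulum.

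Chromatin immunoprecipitation and sequencing was run with antibodies to HIF-1β, HIF-1α and HIF-2α in 25 groups of 2 libraries, and 16 further samples were input chromatin. HKC-8 cells, a line of kidney proximal tubule cells, were cultured for 6, 16 or 48 h at 0.5% oxygen or for 6 h at 3%, with all 3 antibodies. In a separate experiment, wild-type HKC-8 cells and cells in which CRISPR-Cas9 had put frameshifts into HIF-1α or HIF-2α were held in 0.5% oxygen for 16 h, each knockout being a single clone. The knockout cells were studied with HIF-1β and the remaining α-subunit, so the lists do not check the deletion itself. RCC4 renal carcinoma cells, which lack functional VHL and so keep HIF-α in normoxia, and HepG2 hepatoma cells in 0.5% oxygen for 16 h completed the set. The libraries of a group are described as independent ChIP-seq experiments, and p-values measure the spread between such libraries.

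Each list gives peak positions and a caller score but no read counts, so depth is unknown and a missing peak may lie just under the caller's limit. The lists held 237 to 8279 peaks, the shortest being HIF-2α at 48 h, replicate 2, and 0 to 7 of the 9 genes had a peak in any one list. In the main results the score was used only within a list, as a percentile (100 for the strongest peak) or a rank (1 for the strongest). An alternative setting kept only peaks of score 100 or more in every list. That limit may not mean the same in lists of unlike depth. In HepG2, the libraries labelled HIF-1α replicate 2 and HIF-2α replicate 1 had 28.1% and 30.1% of peaks within 1 kb of a TSS, and those labelled HIF-1α replicate 1 and HIF-2α replicate 2 had 6.59% and 7.88%. The libraries labelled HIF-1α replicate 2 and HIF-2α replicate 1 shared 50.1% of the shorter list, whereas the replicates labelled HIF-1α shared 35.0% and those labelled HIF-2α 25.9%. HIF-1α replicate 1 shared 33.2% with HIF-2α replicate 2 and 26.8% with HIF-2α replicate 1. The libraries labelled replicate 2 shared 44.5%, so the overlaps did not all pair the libraries in the same way. HepG2 libraries are therefore named by their labels, and the α-subunit counts of the sites are given with and without them.

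Of the 20 sites, 11 were called in at least 10 lists or in both libraries of some group and are described one by one. The other 9 were called in at most 2 lists each. PLIN2 had a promoter site 0.1 kb upstream of a TSS and an upstream site about 13.1 kb beyond the 5′ end of the annotated gene, which is 34.8 kb from the promoter site. HILPDA, INSIG2, VLDLR, FABP3 and CPT1A had sites 0.047, 0.173, 0.078, 0.629 and 1.32 kb from a TSS, and INSIG2 had another 24.5 kb downstream. The LPIN1 and LRP1 sites lay in introns, 20.2 and 37.3 kb from the 5′ end of the gene.

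The sequences at the sites called most often are printed to show the HRE cores under the peaks. Each is the HRE core nearest to the middle of the peaks with 30 bases to either side, or 12 for VLDLR, whose site overlaps an untranslated region. All are from GRCh37, written 5′ to 3′ on the strand of the gene, with HRE cores of either strand in capitals. The LPIN1 core lies 175 bp from the centre of its site.
PLIN2 upstream site, nearer peak, chr9:19161878-19161942, minus strand: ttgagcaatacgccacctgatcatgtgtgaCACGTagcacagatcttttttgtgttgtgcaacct
PLIN2 upstream site, farther peak, chr9:19163035-19163099, minus strand: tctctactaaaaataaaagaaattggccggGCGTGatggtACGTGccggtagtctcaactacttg
PLIN2 promoter, chr9:19127541-19127605, minus strand: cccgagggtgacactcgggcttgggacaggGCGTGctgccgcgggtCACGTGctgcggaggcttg
HILPDA promoter, chr7:128095818-128095882, plus strand: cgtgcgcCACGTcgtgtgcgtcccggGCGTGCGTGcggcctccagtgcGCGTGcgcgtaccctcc
INSIG2 promoter, chr2:118845858-118845922, plus strand: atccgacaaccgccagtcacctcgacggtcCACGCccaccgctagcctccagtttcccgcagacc
VLDLR promoter, chr9:2622183-2622211, plus strand: gggcaccatgggCACGTccgcgctctggg
FABP3 promoter, chr1:31846588-31846652, minus strand: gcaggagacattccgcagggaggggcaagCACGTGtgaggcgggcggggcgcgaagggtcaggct
LPIN1 intronic site, chr2:11838017-11838081, plus strand: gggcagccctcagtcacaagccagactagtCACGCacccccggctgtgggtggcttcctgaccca

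An HRE core (ACGTG or GCGTG, both strands) lay within 100 bp of the centre of 7 of the 11 sites, against 34.0% of all sites and 69.6% of the 2652 sites called in at least 10 lists. The HILPDA promoter held 6 cores in that window and the PLIN2 promoter 4. The merged PLIN2 upstream site held none at its middle, which falls between 2 peaks, but 1 core lay within 100 bp of the nearer peak and 2 within 100 bp of the farther one. The AP-1 motif (TGACTCA or TGAGTCA, both strands) lay within 100 bp of the centre at 1 of the 11 sites, the LPIN1 intronic site, against 7.98% of all sites and 18.1% of those in at least 10 lists. These are matches of letters and do not show which protein bound them.

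**Figure D1:**
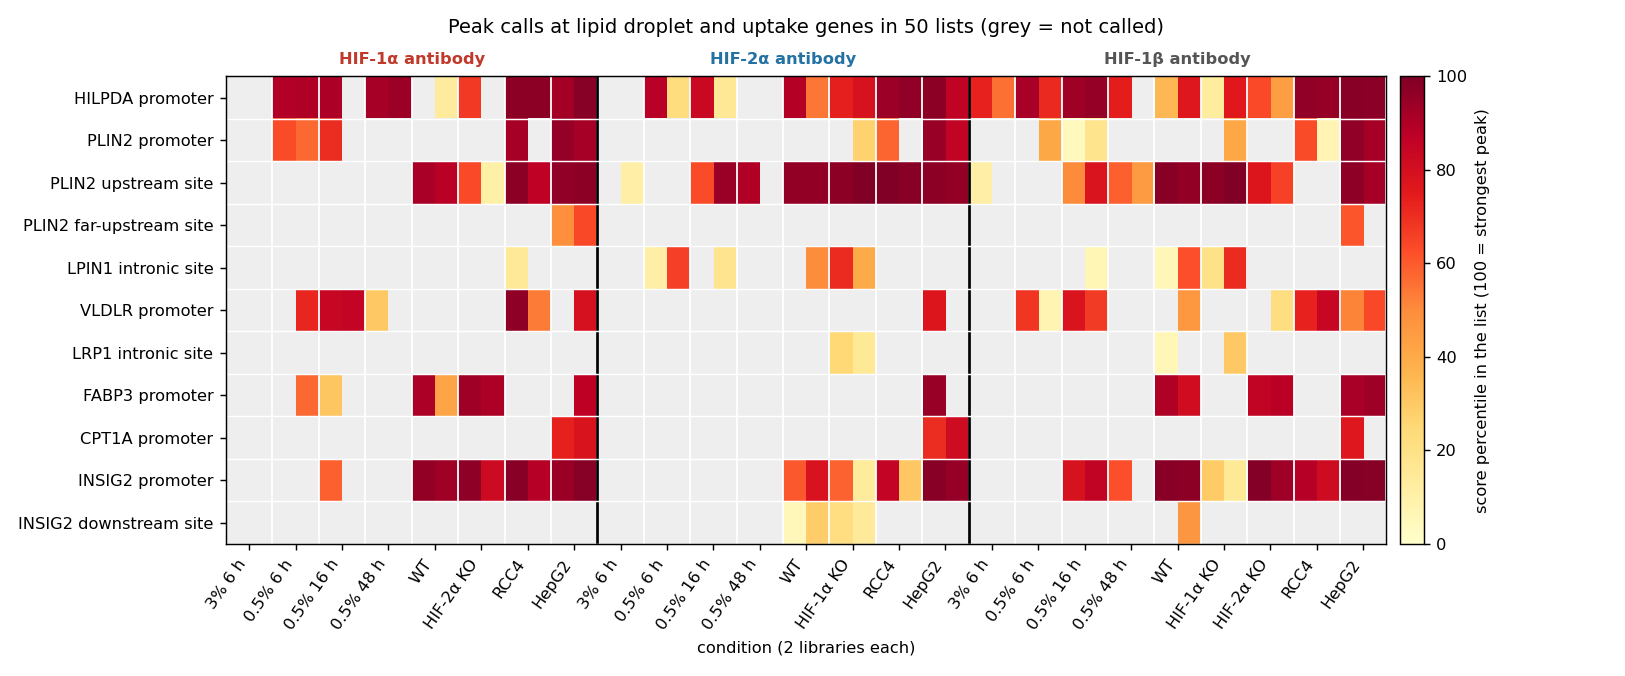
Score percentile within its list (colour, 100 for the strongest peak, grey where no peak was called) of the 11 described sites (rows) in each of the 50 libraries (columns, grouped by antibody and condition, 2 libraries each). The HILPDA promoter is coloured in 40 columns and the PLIN2 upstream site in 33, whereas CPT1A is coloured only in HepG2 and LRP1 only in the knockout experiment.

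HILPDA, the inhibitor of triglyceride lipolysis, was the most widely bound of the 9 genes. Its single promoter site (chr7:128094099-128096742, centred outside the gene) was called in 40 of 50 lists, a number reached by 0.404% of protein-coding genes: 11 of 16 HIF-1α, 12 of 16 HIF-2α and 17 of 18 HIF-1β lists. In the lists that called it, the HIF-1β percentile ran from 12.8 to 98.0 with a median of 75.5, that of HIF-1α from 13.6 to 98.3 with a median of 92.0, and that of HIF-2α from 15.4 to 97.2 with a median of 84.8. The site was called with both α-subunits in RCC4 and HepG2, where all 12 lists placed it at percentile 86.3 or above.

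PLIN2, the droplet coat protein, was called in 39 of 50 lists, which 0.490% of genes reached. Its peaks came from separate elements. The promoter site (chr9:19126920-19128250, in an intron of the longer transcript) was called in 18 lists, 6 of 16 HIF-1α, 4 of 16 HIF-2α and 8 of 18 HIF-1β. The upstream site (chr9:19161171-19163813, outside the gene) was called in 33 lists, 8 of 16 HIF-1α, 12 of 16 HIF-2α and 13 of 18 HIF-1β, and its median percentile when called was 95.9 for HIF-2α, 89.7 for HIF-1α and 77.4 for HIF-1β. In the series by oxygen and time it was called in 0 of 8 HIF-1α, 4 of 8 HIF-2α and 5 of 8 HIF-1β lists.

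The PLIN2 upstream site was made of a nearer and a farther peak, 12.6 and 13.8 kb from the 5′ end of the gene and 1171 bp apart. Both were covered in 20 lists, 15 of them as separate peaks and 5 as a single wide peak. The lines differed in which of the pair they held. In the knockout experiment 13 of 14 HKC-8 lists covered both, and in RCC4 all 4 HIF-α lists did. All 6 HepG2 lists covered the nearer peak and none the farther one. In 3 of those 6, the libraries labelled HIF-1α replicates 1 and 2 and HIF-1β replicate 1, a further peak was called about 15 kb upstream, and none of the other 44 lists called it. In the HKC-8 series by oxygen and time, 5 of the 9 lists with a peak covered only the farther one. Line and experiment cannot be told apart in these libraries, so the counts are given without a test.

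**Figure D2:**
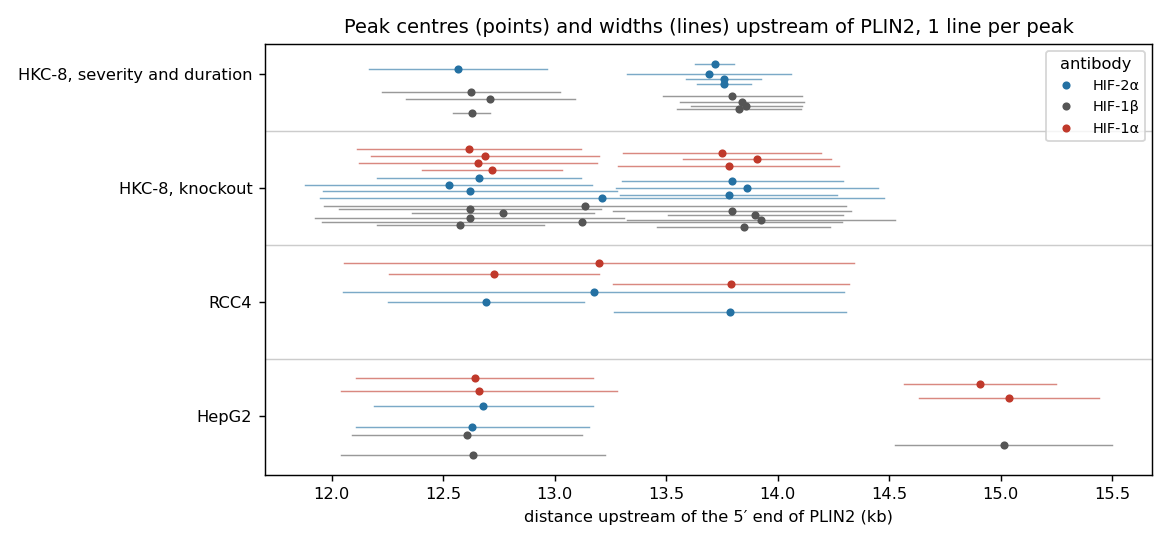
Peaks upstream of PLIN2 by experiment (rows) and antibody (colour), with the peak centre as a point and the peak width as a line, plotted by distance from the 5′ end of the gene in kb. HepG2 peaks sit near 12.6 and 15 kb, and HKC-8 and RCC4 peaks near 12.6 and 13.8 kb or across both.

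PNPLA2, the triglyceride lipase that HILPDA inhibits, had no peak in any of the 50 lists. Peaks within 50 kb of its TSS were nearer to CD151 (8 peaks) or TSPAN4 (2 peaks).

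LPIN1, which makes diacylglycerol from phosphatidate, was called in 15 lists, 1 of 16 HIF-1α, 7 of 16 HIF-2α and 7 of 18 HIF-1β. Its intronic site (chr2:11836542-11839252) was called in 12 of these, and the only HIF-1α list among them was RCC4 replicate 1 at percentile 14.7. Under HIF-2α the percentile ran from 10.6 to 70.7 with a median of 44.8, so the site was called at middle and low ranks.

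Of the uptake genes, VLDLR was called in 19 lists and FABP3 in 14, both mostly with HIF-1α and HIF-1β. The VLDLR promoter site (chr9:2620836-2624064, centred in an untranslated region) was called in 7 of 16 HIF-1α lists at a median percentile of 79.0, in 10 of 18 HIF-1β lists at 65.6, and in 1 of 16 HIF-2α lists, the HepG2 library labelled HIF-2α replicate 1, at 77.0. The FABP3 promoter site (chr1:31845448-31847307, in an intron of a longer transcript) was called in 7 of 16 HIF-1α lists at a median of 87.1, in 6 of 18 HIF-1β lists at 88.9, and in 1 of 16 HIF-2α lists, the same HepG2 library, at 94.9. Without HepG2 neither promoter was called in any HIF-2α list. LRP1, a large endocytic receptor, was called at its intronic site (chr12:57558406-57560256) in 4 lists, all of the knockout experiment and all at percentile 30.3 or lower, 2 with HIF-2α and 2 with HIF-1β.

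CPT1A, the entry step of fatty acid oxidation, was called only in HepG2, in 5 of its 6 lists, at chr11:68612509-68613837, upstream of the gene. The percentile was 73.3 and 77.9 in the libraries labelled HIF-1α, 70.7 and 81.8 in those labelled HIF-2α, and 76.5 in HIF-1β replicate 1, and HIF-1β replicate 2 did not call it. Neither the renal line HKC-8 nor RCC4 had a CPT1A peak.

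INSIG2, the regulator of sterol synthesis, was called in 30 lists, which 1.29% of genes reached. Its promoter site (chr2:118844634-118847671, centred outside the gene) was called in all of these, 9 of 16 HIF-1α lists at a median percentile of 94.1, 8 of 16 HIF-2α lists at 69.3 and 13 of 18 HIF-1β lists at 88.5. The site 24.5 kb downstream (chr2:118870133-118871074) was called in 5 lists of the knockout experiment, 4 with HIF-2α and 1 with HIF-1β and none with HIF-1α, at percentiles of 5.47 to 46.8.

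HIF-1α and HIF-2α were compared in the 7 conditions that hold both antibodies, 14 libraries against 14, with an exact two-sided permutation test of the number of lists with a peak. Labels were permuted within condition, and p-values were adjusted by the Benjamini-Hochberg method over all features tested. No member passed the test after adjustment. The VLDLR promoter was called in 7 HIF-1α and 1 HIF-2α lists (exact p = 0.035, adjusted p = 0.605), and in 6 of 12 and 0 of 12 without HepG2. The PLIN2 upstream site was called in 6 HIF-1α and 10 HIF-2α lists (exact p = 0.083, adjusted p = 0.688), and in 4 of 12 and 8 of 12 without HepG2. FABP3 was called in 5 and 1 lists (exact p = 0.15), the PLIN2 promoter in 6 and 3 (exact p = 0.28), the LPIN1 intronic site in 1 and 4 (exact p = 0.33), INSIG2 in 7 and 6 and HILPDA in 10 and 10. Under other settings on calls, the HIF-1α minus HIF-2α difference ran from -4 to -1 lists for the PLIN2 upstream site, with -1 in sites built from 200 bp windows (exact p = 1) and -2 in lists of equal length (exact p = 0.625) or at scores of 100 or more (exact p = 0.5). It ran from 2 to 8 lists for the VLDLR promoter, 1 to 6 for the FABP3 promoter and 1 to 3 for the PLIN2 promoter. For the LPIN1 intronic site the range was -3 to 0, for the INSIG2 promoter 0 to 3 and for the HILPDA promoter 0 to 4. The 8 and 6 came only from exchanging the HepG2 replicate 1 labels, a setting chosen after the data were seen from promoter shares. Without that setting the VLDLR and FABP3 differences were at most 6 and 4.

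By this exact permutation test 0 of 8 member sites tested were called at an adjusted p under 0.05, against 0% of the 5187 sites tested, and 1 of 8 had an unadjusted p under 0.05, against 7.04%. At gene level 0 of 7 members tested were called after adjustment, against 0% of 5035 genes, and 0 of 7 before it, against 4.33%. Of those 7, 3 were called in more HIF-1α lists and 2 in more HIF-2α lists, against 39.6% and 44.8% of genes, and of the 8 sites 4 and 2, against 32.4% and 49.5%. Without HepG2 it was 3 and 2 of 6 member genes, against 32.9% and 53.9%, and 4 and 2 of 7 member sites, against 21.4% and 65.2%. The median difference was 0 lists over these members and over all genes, and 0.5 lists over the member sites against 0 over all sites. The same exact permutation test on score percentiles, with 0 for a list without the peak, called 97 sites (1.87%) and 44 genes (0.874%), no member among them, and before adjustment 3 of 8 member sites (12.3% of all sites) and 2 of 7 member genes (9.53% of all genes). Its smallest p among the members was that of the PLIN2 upstream site (exact p = 0.0023, adjusted p = 0.0678), with a mean percentile of 39.7 in HIF-1α and 60.0 in HIF-2α lists. Without HepG2, a setting chosen after the data were seen, the means were 30.2 and 53.9 and the site passed (exact permutation test, adjusted p = 0.0354). In that setting 223 of the 3383 sites tested passed. In that percentile test the VLDLR promoter had an exact p of 0.016 (adjusted p = 0.215) and the INSIG2 promoter an exact p of 0.023 (adjusted p = 0.271).

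Position went with the direction over all sites. Of 1231 tested sites within 1 kb of a TSS, 75.3% were called in more HIF-1α lists and 15.4% in more HIF-2α lists, and of 3956 others 19.1% and 60.1%. Without HepG2 these shares were 67.7% and 24.3% of 589 sites and 11.7% and 73.8% of 2794. Of the 5 member sites within 1 kb, 4 were called in more HIF-1α lists and HILPDA in equal numbers, and of the 3 others tested the PLIN2 upstream and LPIN1 sites were called in more HIF-2α lists and CPT1A in equal numbers.

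**Figure D3:**
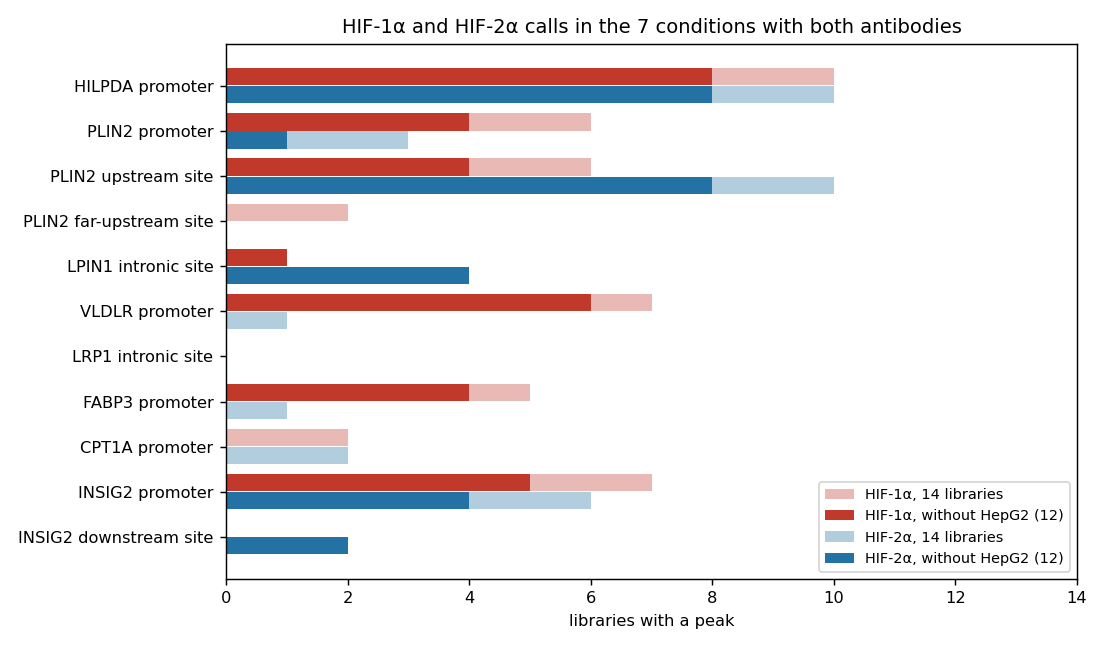
Number of HIF-1α (red) and HIF-2α (blue) libraries with a peak at each described site, of 14 per antibody (pale bars) and of 12 without HepG2 (full bars). The VLDLR and FABP3 promoters have full bars for HIF-1α alone, and the PLIN2 upstream site has the longer bar for HIF-2α, 8 against 4.

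The severity of hypoxia was examined in HKC-8 cells at 6 h, 3% against 0.5% oxygen, over 6 libraries each, 2 per antibody. HIF-1β is the partner of both α-subunits, so lists of the 3 antibodies are not fully independent readings of a site. HILPDA was called in all 6 lists at 0.5% and in 2 of 6 at 3%. At 0.5% its percentile was 91.5 and 71.3 for HIF-1β, 89.2 and 90.1 for HIF-1α and 88.1 and 22.3 for HIF-2α. At 3% it was called with HIF-1β alone, at 73.0 and 55.5. The groups overlapped under HIF-1β. Under either α-subunit they were split only as called at 0.5% and not called at 3%. The share of all genes split in this way was not counted. With labels permuted within antibody the exact p was 0.056 (adjusted p = 1), and 0.125 when they were also kept within replicate number. VLDLR was called in 3 lists at 0.5% and in 0 at 3% (exact p = 0.17), and PLIN2 in 3 and 2. At 0.5% the PLIN2 peaks were all at the promoter, at percentiles of 62.9 and 57.1 for HIF-1α and 40.9 for HIF-1β, and at 3% both were at the upstream site, at 10.6 for HIF-2α and 10.7 for HIF-1β.

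By the exact permutation test 0 of 3 members tested passed after adjustment, against 0% of 911 genes, and 0 of 3 before it, against 0.988%. All 3 were called in more lists at 0.5%, as were 55.7% of genes, and 0 of 3 in more lists at 3%, against 25.7%. The percentile version called no gene after adjustment, 4.72% before it, and HILPDA with an exact p of 0.019 (adjusted p = 0.569). The smallest p this design allows is 0.0093. List lengths moved with oxygen, 1271 to 1496 peaks at 0.5% and 558 to 1223 at 3%, and their part in these counts was not tested.

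The duration of hypoxia was examined at 0.5% oxygen over the same number of libraries. From 6 to 16 h, INSIG2 went from 0 to 3 of 6 lists, with percentiles of 58.9 for HIF-1α replicate 1 and of 78.8 and 85.7 for HIF-1β (exact p = 0.17). PLIN2 went from 3 to 5 lists, VLDLR from 3 to 4, LPIN1 from 2 to 3 and HILPDA from 6 to 5. At the PLIN2 upstream site, none of the 6 lists had a peak at 6 h, and at 16 h the percentile was 63.2 and 94.3 for HIF-2α and 50.3 and 77.4 for HIF-1β, with no HIF-1α peak. Both HIF-1α lists held VLDLR at 16 h, at 84.1 and 84.9, against 72.0 in 1 of 2 at 6 h.

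At 48 h, HILPDA was called in 3 of 6 lists against 6 of 6 at 6 h (exact p = 0.17), HIF-1α holding it at 92.0 and 93.8 and HIF-1β replicate 1 at 74.0. VLDLR was called in 1 list against 3, at 30.4, and PLIN2 in 3 lists at each time. The PLIN2 peaks at 48 h were all at the upstream site, at 89.7 for HIF-2α replicate 1 and at 58.7 and 45.2 for HIF-1β. By the exact permutation test 0 of 5 members passed at 16 h and 0 of 3 at 48 h, against 0% of 1165 and 864 genes. Before adjustment no member passed, against 0.515% and 0.463% of genes (3.52% and 3.01% in the percentile version, again with no member). At 16 h 4 of 5 members were called in more lists than at 6 h, against 51.9% of genes, and 1 of 5 in fewer, against 27.7%. At 48 h 2 of 3 were called in fewer lists, against 59%, and 0 of 3 in more, against 21.2%. With peaks of score 100 or more alone, the order for HILPDA turned, with 1 more list at 48 h and 2 more at 16 h than at 6 h. Lists held 951 to 1793 peaks at 16 h and 237 to 1383 at 48 h.

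**Figure D4:**
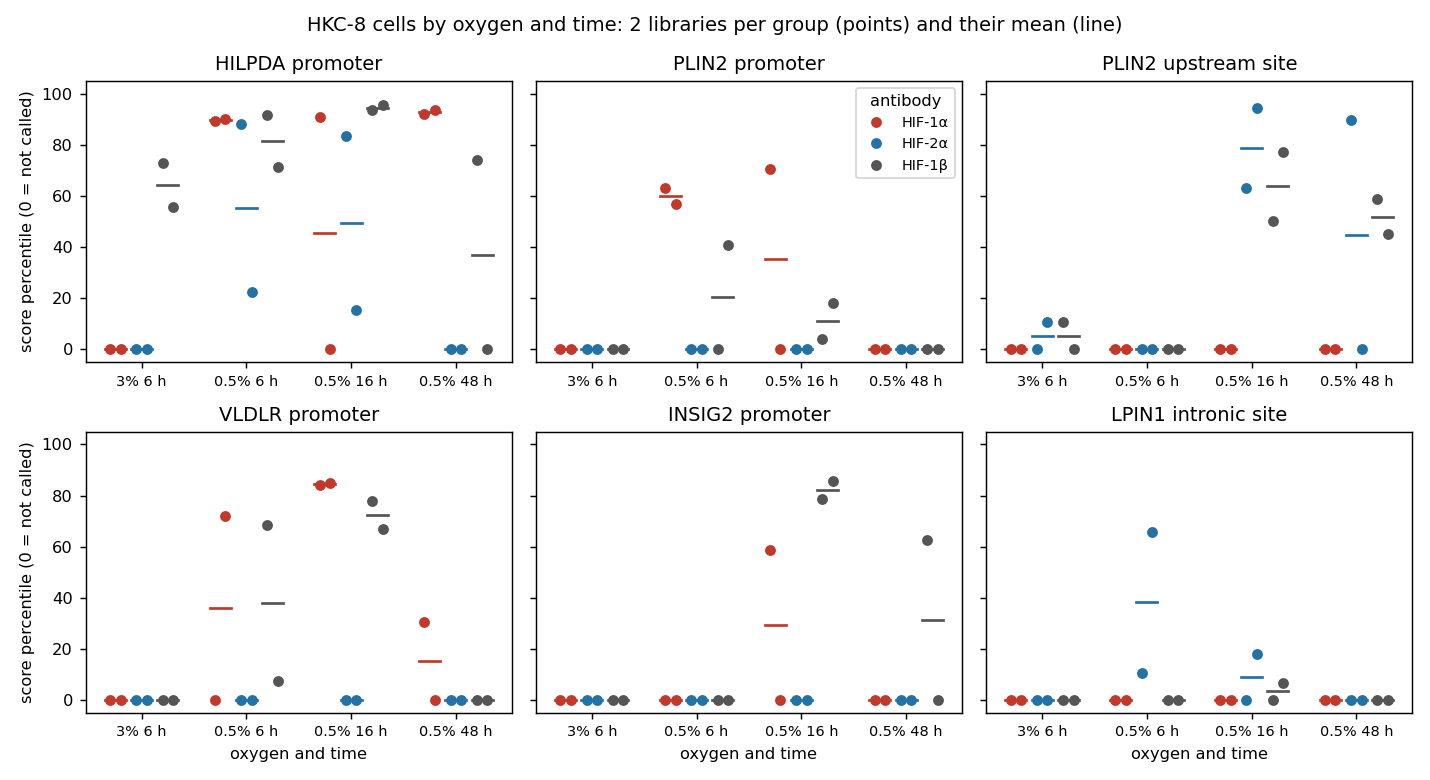
Score percentile (0 where not called) of 6 sites in HKC-8 cells by oxygen and time, with 1 point per library, 2 per group, and a line at their mean. At the PLIN2 promoter the points above 0 lie at 0.5% oxygen for 6 and 16 h, and at the upstream site those above 50 lie at 16 and 48 h.

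In the knockout experiment HIF-1β, the partner of both isoforms, was read in cells holding either α-subunit alone. Its lists held 6199 and 8279 peaks in wild-type, 3387 and 5786 in HIF-1α knockout and 2550 and 2085 in HIF-2α knockout cells, so list length moved with genotype and its part in the ranks, percentiles and calls was not tested. At the PLIN2 upstream site the HIF-1β rank was 125 and 335 in wild-type lists, 94 and 7 in HIF-1α knockout lists and 585 and 725 in HIF-2α knockout lists. As percentiles this was 97.0 ± 1.44, 98.4 ± 1.66 and 71.2 ± 8.36 (SD, n = 2). The HIF-2α percentile was 95.8 and 96.0 in wild-type and 97.2 and 99.5 in HIF-1α knockout cells. In the second HIF-1α knockout library the score of 3100 was shared by 35 peaks of the HIF-1β list and 52 of the HIF-2α list, so the rank there is the best of the tied peaks. The HIF-1α percentile was 91.5 and 87.9 in wild-type and 63.4 and 10.3 in HIF-2α knockout cells. The paper reports slightly lower HIF-1α protein and HIF-1α binding in the HIF-2α knockout cells, which it calls possibly clonal variation. The part of this in the percentiles here was not tested. HIF-1β at this site was lower in both HIF-2α knockout libraries than in any of the other 4, an order that was not counted over all sites. By calls, 3764 sites were in at least 2 of the 4 knockout HIF-1β lists. Of these, 37.1% were in both HIF-1α knockout and neither HIF-2α knockout list, and 9.86% had the reverse pattern.

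At the INSIG2 promoter HIF-1β was lowest in both HIF-1α knockout libraries, an order that was not counted over all sites. Its rank was 127 and 240 in wild-type lists, 39 and 136 in HIF-2α knockout lists and 2386 and 4924 in HIF-1α knockout lists, or 97.5 ± 0.598, 96.0 ± 3.52 and 22.2 ± 10.4 as percentiles (SD, n = 2). The HIF-1α percentile was 95.7 and 93.5 in wild-type and 96.8 and 82.2 in HIF-2α knockout cells. The HIF-2α percentile was 60.4 and 78.1 in wild-type and 58.4 and 13.9 in HIF-1α knockout cells.

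FABP3 and LPIN1 were split by calls alone. The FABP3 promoter was called with HIF-1β in both wild-type (89.9 and 81.2) and both HIF-2α knockout lists (85.8 and 87.9) and in neither HIF-1α knockout list. HIF-1α held it in all 4 lists of this experiment, at 90.6 and 41.9 in wild-type and 93.5 and 90.5 in HIF-2α knockout cells, and HIF-2α held it in none of 4. The LPIN1 intronic site was called with HIF-1β in both wild-type (6.05 and 62.2) and both HIF-1α knockout lists (19.1 and 71.0) and in neither HIF-2α knockout list. HIF-2α held it in 1 of 2 wild-type and both HIF-1α knockout lists, at 49.6, 70.7 and 39.9, and HIF-1α in none of 4.

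The HILPDA promoter was called with HIF-1β in all 6 lists with no order by genotype, at 35.5 and 76.3 in wild-type, 12.8 and 75.5 in HIF-1α knockout and 63.3 and 43.9 in HIF-2α knockout cells. Its HIF-2α percentile was 88.9 and 54.5 in wild-type and 73.6 and 78.5 in HIF-1α knockout cells, and HIF-1α held it in 1 of 2 lists of each genotype, at 13.6 in wild-type and 67.3 in HIF-2α knockout cells. Of the 5 member sites in at least 2 of the 4 knockout HIF-1β lists, 1 was called in both HIF-1α knockout and neither HIF-2α knockout list, against 37.1% of all 3764 such sites, and 1 had the reverse pattern, against 9.86%. With 2 libraries against 2 an exact permutation test cannot go below p = 0.33, so no test was made.

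**Figure D5:**
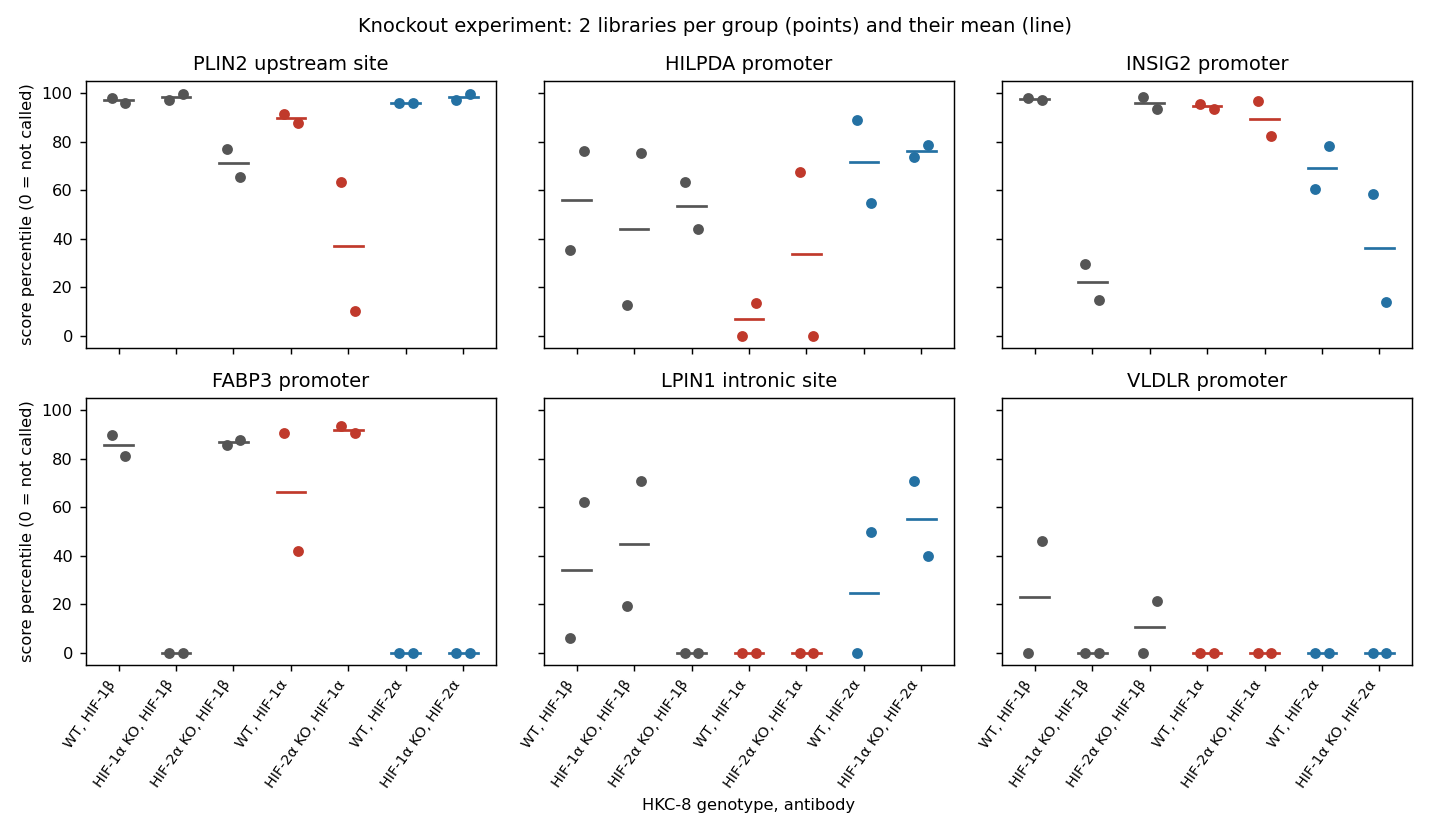
Score percentile (0 where not called) of 6 sites in wild-type, HIF-1α knockout (KO) and HIF-2α knockout HKC-8 cells by antibody, with 1 point per library, 2 per group, and a line at their mean. The HIF-1β percentile is low in HIF-1α knockout cells at INSIG2, and no HIF-1β peak was called there at FABP3. It is lowest in HIF-2α knockout cells at the PLIN2 upstream site, and no HIF-1β peak was called there at LPIN1. A missing call does not show absence of binding.

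Across the lines, both HIF-1β libraries called 5 of the 9 genes in wild-type HKC-8 cells of the knockout experiment (PLIN2, HILPDA, LPIN1, FABP3 and INSIG2), against 14% of all genes. In RCC4 they called 4 (PLIN2, HILPDA, VLDLR and INSIG2), against 1.95%, in lists of 911 and 1305 peaks. In HepG2 they called 5 (PLIN2, HILPDA, VLDLR, FABP3 and INSIG2), against 9.63%. HILPDA was strong in RCC4, at rank 36 of 911 and 64 of 1305 with HIF-1β, and in HepG2, at rank 122 of 6171 and 99 of 3986. In wild-type HKC-8 cells its HIF-1β rank was 3997 of 6199 and 1962 of 8279, whereas at 16 h in the series by oxygen and time, in the same line and oxygen, it was 88 of 1357 and 82 of 1793. The INSIG2 promoter was at HIF-1β rank 76 of 6171 and 68 of 3986 in HepG2 and 106 of 911 and 240 of 1305 in RCC4. In HKC-8 cells it was high in the wild type of the knockout experiment. At 16 h in the series by oxygen and time, both HIF-1β lists called it, at percentiles of 78.8 and 85.7. It was called in 0 of 6 lists at 6 h in either oxygen level and with HIF-1β in 1 of 2 lists at 48 h.

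At PLIN2, calls of the elements varied within and between lines. In RCC4 the upstream site was at rank 172 of 5680 and 287 of 2120 with HIF-1α and at rank 32 of 4317 and 60 of 2990 with HIF-2α, yet neither HIF-1β list, the shorter ones of 911 and 1305 peaks, held it. The RCC4 HIF-1β libraries are labelled repeats 2 and 3, with inputs labelled alike, and the HIF-α libraries replicates 1 and 2 with other inputs. Antibody and set of libraries cannot be told apart there. The RCC4 promoter site was called with HIF-1β in both lists, at 63.2 and 7.36. In HepG2 the promoter site was called in all 6 lists, at percentiles of 85.9 to 96.4, beside the upstream site in all 6. In wild-type HKC-8 cells of the knockout experiment the promoter site was called in none of 6 lists, and at 16 h in the series by oxygen and time, in the same line and oxygen, in 3 of 6.

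The wider pathway was read from a list of 60 further genes of droplet coats, glyceride synthesis, lipolysis, uptake, oxidation and sterol control. Peaks were found at 44 of them, against 60.5% of all genes, and 10 were called in at least 10 lists, against 12.8%. SCARB1, a lipoprotein receptor, was called in 46 lists, ANGPTL4, an inhibitor of lipoprotein lipase, in 35 and SCD, the stearoyl-CoA desaturase, in 28. AGPAT2 was called in 13, CD36 in 12, MGLL and ACSL1 in 11, and SREBF1 and ACACA in 10. By the exact permutation test of HIF-1α against HIF-2α calls, 0 of 22 genes tested passed after adjustment and 1 before it, against 4.33% of all genes tested. CD36, a fatty acid translocase, was called in 0 HIF-1α and 4 HIF-2α of 14 lists each (exact p = 0.083, adjusted p = 1). The percentile version passed 0 of 22 after adjustment and 2 before it, against 9.53%.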

How the data were processed

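Peaks of 50 ChIP libraries were analysed, and the 16 input samples entered only through the peak caller. The authors trimmed reads (Trim Galore 0.3.3), aligned them to GRCh37 (BWA 0.7.5a-r405), filtered them (SAMtools 0.1.19, Picard 1.106) and called peaks per library with MACS against input. The MACS version is not given in the sources used here. The paper also describes a second caller, T-PIC, a filter of peaks found by both against random background regions, and removal of blacklisted regions. Whether the deposited lists had passed the second caller and the filter was not checked. The deposited score was read as −10 times the log10 of the p-value, with a floor of 50.0 and many ties at 3100, and is not comparable between libraries of unknown depth. Peaks were assigned with GENCODE 44 mapped to GRCh37, and peaks overlapping by 1 bp were merged into sites with Python 3.11.15, numpy 2.4.6, pandas 2.3.3 and scipy 1.17.1. Features called in at least 3 of the libraries compared were tested by exact permutation within condition or antibody. Named were all members, their sites in at least 10 lists or in both libraries of a group, and pathway genes in at least 10 lists, of which 1 is not reported here. The members and lists were chosen with earlier results of these data known. The test was checked on simulated data. No 2 libraries had identical peaks. Alternatives were another score limit, list length, distance rule, site width, minimum of libraries, replicate block and left-out libraries.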

Additional observations from a re-analysis of the deposited data

Results flagged for a closer look

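At the HILPDA promoter the order of HIF-1α and HIF-2α differed between conditions. The mean score percentile of HIF-1α minus that of HIF-2α was 34.4 in 0.5% oxygen for 6 h, 92.9 at 48 h and 2.16 in RCC4, with both HIF-1α libraries above both HIF-2α libraries in each. In wild-type cells of the knockout experiment it was -64.9, with both HIF-1α libraries below both HIF-2α libraries, 1 of them with no call. In that experiment the HIF-1α lists held 1913 and 1535 peaks and the HIF-2α lists 4537 and 6749, and 81.2% of the 4148 sites in at least 2 of the 4 lists had both HIF-2α libraries above. Both HIF-1α libraries were above at 31.9% of such sites at 6 h, 27.5% at 48 h and 20% in RCC4. The difference between conditions was not tested. At 48 h neither HIF-2α list held the peak, and 1 of them had only 237 peaks. At 16 h in the series by oxygen and time, in the same line and oxygen as the wild-type cells, HIF-1α was at 90.9 and not called, and HIF-2α at 83.3 and 15.4, so the groups overlapped.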

How the results depend on the processing

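Of 421 recomputed differences of members, 364 kept their sign or stayed at 0, 29 went to 0, 24 left 0 and 4 reversed, and 1 changed its side of the threshold. Those that reversed were PLIN2, HIF-1α minus HIF-2α lists, which became 3 with a TSS within 10 kb since the upstream site is then left out, HILPDA at scores of at least 100, 1 at 48 h and 2 at 16 h minus 6 h, and LPIN1 at 16 h minus 6 h, -4.58 in percentile; the cause was not tested for the last 3. The PLIN2 upstream site passed only on percentiles without HepG2. Counts over all genes and sites moved more, with no member among them but the PLIN2 upstream site: on percentiles 44 genes and 97 sites passed, in lists of equal length 55 and 70, with the HepG2 replicate 1 labels exchanged 1 and 18, and on percentiles without HepG2 115 genes and 223 sites. On calls 11 sites passed without HepG2 and 35 when called in at least 6 libraries. Leaving out replicates or single libraries gave 0 genes in each gene-level comparison and 0 to 6 sites, the 6 without the HepG2 library labelled HIF-2α replicate 1. Without a replicate, 1 library against 1 was left per antibody in the oxygen and time comparisons, so no gene could pass. For the α-subunits 1 against 1 was left per condition, and few arrangements made a pass after adjustment unlikely. The 0 counts without a replicate are therefore no measure of stability. Member peaks fell from 207 to 123 at scores of at least 100, members in both wild-type HKC-8 HIF-1β lists from 5 to 3 both there and in the upper 50% of each list, and sites with an HRE core rose from 7 to 11 over the whole site. With a replicate block 0 genes and 0 sites passed in the exact permutation test of any comparison (before adjustment 141 genes and 236 sites for the α-subunits and 1 gene in each of the others). The block leaves fewer arrangements, so for oxygen and time a pass after adjustment was hardly possible. The deviations of same-numbered libraries had a correlation of -0.376 in HepG2, where they went in opposite directions. In the other conditions it was -0.0129 to 0.192, over 0.1 in RCC4 alone. The numbers were therefore not taken to pair samples. Label exchange, single left-out libraries, the wider motif windows, the knockout and line settings and percentiles without HepG2 were chosen after the data were seen. Depth is unknown, so no absent peak shows absence of binding.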

Other observations

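The genes whose set of lists with a peak was most like that of each member were named by the Jaccard index, the lists shared over the lists with either, over all 50 lists, which share libraries and depth. For HILPDA they were SLC2A1 (0.886), GPI (0.87) and KDM3A (0.87), for PLIN2 RAD54B (0.927), MRPL45 and NPEPPS (0.886 each), and for INSIG2 GTF2IRD2B (0.935), ASPH (0.906) and NREP (0.879). For VLDLR they were PFKL (0.708), HDHD5 and NCKIPSD (0.696 each), for FABP3 CLK1 (0.857), IP6K1 and NDUFB8 (0.8 each), and for LPIN1 MTHFS and PPIL6 (0.667 each) and LBHD2 (0.636).

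Within 50 kb of a TSS of LRP1, peaks nearer to a neighbour outnumbered the 4 given to LRP1 itself. STAT6 took 60 peaks in 32 lists, NDUFA4L2 10, NEMP1 8, NAB2 4 and NXPH4 1. The calls of LRP1 depended on the distance rule. With peaks assigned by the nearest TSS alone, or by a TSS within 10 kb, it was called in 3 more HIF-1α than HIF-2α lists (exact permutation test, p = 0.25).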
